A study of Caenorhabditis elegans with 21 samples.

Results

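The genes described here are 19 protein-coding genes of Caenorhabditis elegans that carry only a sequence name and whose small RNAs, as a share of the reads counted in features, were low in the mut-2 and mut-7 mutants and stayed at 0.75 of wild type or more in the mean of the dpf-3 mutants. They were chosen by their small RNA counts in these 21 libraries, out of 75393 counted features, of which 20134 are gene identifiers. Levels are given as CPM, a gene's count divided by the library's total over genes and unnamed genomic intervals and then scaled to counts per 1e+06. Of 8929 unnamed coding genes in the table, 423 had a mean of at least 100 CPM over the 9 wild-type libraries. In 268 of these the mean of the 6 mut-2 and mut-7 libraries was at most 0.2 of the wild-type mean. The mean of the 6 dpf-3 libraries was then at least 0.75 of wild type in 19 genes, and these are the members. A set of known targets of the Argonaute ERGO-1 was to be left out by name, and this removed 0 genes, because none of them met all 3 thresholds. Since wild type against the mutants chose the genes, those differences are given as a description and no test is made of them.

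The small RNAs of the mutator pathway are made in a second round. A primary small RNA bound to an Argonaute protein marks a messenger RNA, RNA-dependent RNA polymerases copy that RNA into many short antisense RNAs with a 5′ triphosphate, and Argonautes of the WAGO class carry these to silence the target. MUT-2, also called RDE-3, is a nucleotidyltransferase that adds tails of alternating U and G to marked RNAs so that they serve as templates, and MUT-7 resembles exoribonucleases. Both act in the mutator foci beside germline P granules. DPF-3 is a member of the dipeptidyl peptidases, enzymes that trim proteins from the N-terminus, and the study asked how trimming of Argonautes by a protease affects the small RNAs they carry. ERGO-1 is an Argonaute of the first round, and many of its targets are short, poorly conserved genes or copies of genes.

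Small RNAs were taken from whole worms at the L4 larval stage, grown at 15 °C on NA22 bacteria, and were treated with an RNA 5′ polyphosphatase so that triphosphorylated RNAs could enter the libraries. The 5 genotypes were wild type (9 libraries, A to I), a dpf-3 null mutant, DPF-3 S784A (a serine to alanine exchange), mut-2(ne3370) and mut-7(ne4255), with 3 libraries (A to C) of each mutant. The labels give no allele name for the dpf-3 genotypes, no strain background, and no statement that the libraries of a genotype came from separate cultures, so the p-values below measure only the spread between these libraries, which may be technical. In RNA of whole worms, fewer cells that make a small RNA and fewer copies in each cell cannot be told apart.

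The total of feature counts in a library lay between 40693 and 583038. Wild type averaged 377432, the dpf-3 null 179300, DPF-3 S784A 90622, mut-2 44346 and mut-7 79581. A level of 3 counts equalled 5.15 CPM in the deepest and 73.7 CPM in the shallowest library. Small RNA counts of the mutated genes do not test the mutations: those of dpf-3 summed to 5 counts in the null and averaged 134 CPM in DPF-3 S784A against 62.5 in wild type, those of mut-2 summed to 2 counts in mut-2 and 34 in wild type, and those of mut-7 averaged 1046 CPM in mut-7 against 161 in wild type. Wild type fell into 2 sets that the labels do not separate, A to F and G to I, and for the members whose sets did not overlap, dpf-3 ratios to each set are given below, with mutator ratios where more than 3 counts were left. Reads in no feature made up 69.0% ± 1.69 (SD, n = 6) of all reads in A to F, 53.5% ± 0.431 (n = 3) in G to I, and 79.0% to 90.3% on average in the 4 mutants. CPM leaves these reads out.

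This choice of denominator bears on the name of the gene set. Scaled by the trimmed mean of M values (TMM), 10 of the 19 genes fell under 0.75 of wild type in the dpf-3 libraries. These were C46C2.3, W04A8.9, Y57G11C.51, C01A2.6, C17C3.2, C09E7.4, F22E12.1, Y73B3B.3, Y82E9BR.22 and R07H5.11, and the same genes did so scaled to all reads counted. By CPM itself 3 genes were under 0.75 in the null alone, C01A2.6 at 0.606, Y82E9BR.22 at 0.654 and C46C2.3 at 0.749, and 0 were in DPF-3 S784A. The median ratio to wild type over all 1498 features with at least 100 CPM in wild type by CPM was 0.590 for the dpf-3 null and 0.671 for DPF-3 S784A, and 0.367 and 0.433 by TMM, a shift of -0.68 and -0.63 on the log2 scale. Relative to that median feature, the members' median stood 1.9-fold higher in the null by CPM and 1.92-fold by TMM, and 1.5-fold and 1.51-fold higher in DPF-3 S784A. The members' median thus stood above that of all features under both scalings, which follows from the rule, whereas a median near the level of wild type was seen by CPM and not by TMM. Against the mutators the members' median relative to the median feature was 0.371 (mut-2) and 0.453 (mut-7) by CPM, and 0.377 and 0.456 by TMM.

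**Figure D1:**
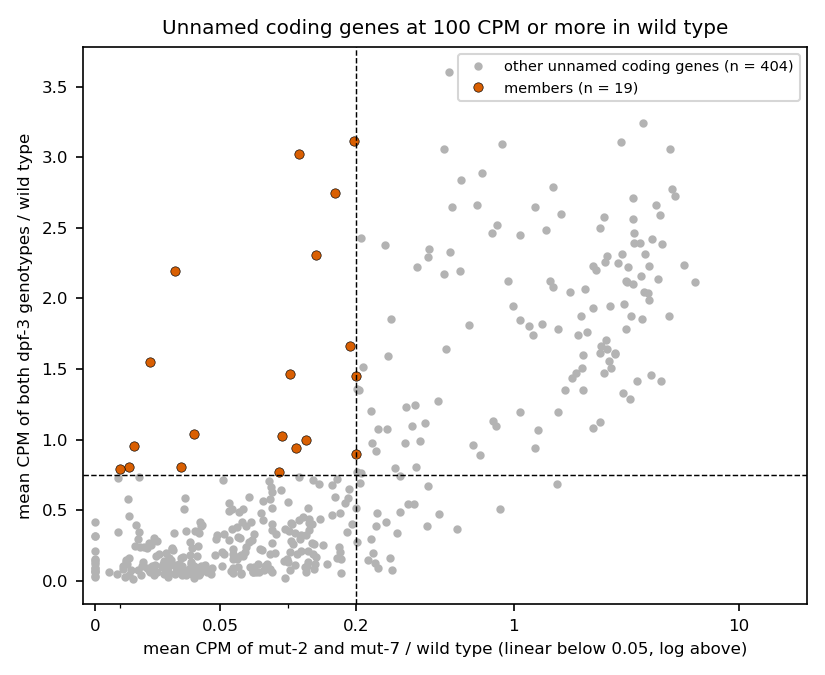
The 423 unnamed coding genes with a wild-type mean of at least 100 CPM, each a point. The horizontal axis is the mean CPM of the 6 mut-2 and mut-7 libraries divided by that of wild type (linear below 0.05, logarithmic above), the vertical axis the same for the 6 dpf-3 libraries, and dashed lines mark 0.2 and 0.75. The 19 members (orange) fill the upper left corner, with dpf-3 ratios from 0.771 to 3.11, and several of them lie on or near a line.

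The thresholds cut through a continuous distribution. K09A9.6, at 101 CPM, was the member closest to the wild-type limit, and F07G6.2, at 82.4 CPM, met the other 2 limits and was left out. F39C12.1, with a mutator ratio just under 0.2, was kept, and ZC15.1, at 0.202, was not. C46C2.3 had the lowest dpf-3 ratio among the members, 0.771, and W03H9.1 lay just outside at 0.738. Of genes with a given name, 32 met the same 3 thresholds and were not part of the set.

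Together the 19 genes held 3.11% ± 1.02 of the wild-type feature counts (SD, n = 9). The dpf-3 null stood above that with 6.08% ± 0.0592, as did DPF-3 S784A with 4.88% ± 0.151, while mut-2 kept 0.242% ± 0.0659 and mut-7 0.236% ± 0.0126 (n = 3 each). Y17D7B.4 made up a large part of this share and gave 60.0% of the members' counts in wild type A to F and 28.4% in wild type G to I. For the null this was 70.3%, for DPF-3 S784A 63.4%, for mut-2 17.9% and for mut-7 27.9%. Without Y17D7B.4 the remaining genes held 1.43% ± 0.132 of the wild-type feature counts. The null and DPF-3 S784A held more, 1.80% ± 0.0406 and 1.79% ± 0.117, whereas mut-2 held 0.201% ± 0.0613 and mut-7 held 0.170% ± 0.0139. These shares leave out reads in no feature, so they describe feature counts only. Scaled to all reads counted, 14 of the 19 members had a dpf-3 mean below wild type. The other 5, Y17D7B.4, K02E2.11, Y102A11A.3, Y43F8B.29 and T12D8.9, had one above. Y17D7B.4, the largest of them, then stood at 1.65 of wild type in the null and at 1.01 in DPF-3 S784A. The members' median ratio to wild type was then 0.642 for the null and 0.507 for DPF-3 S784A. The mutator values rest on 316 counts over all members in mut-2 and 561 in mut-7.

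**Figure D2:**
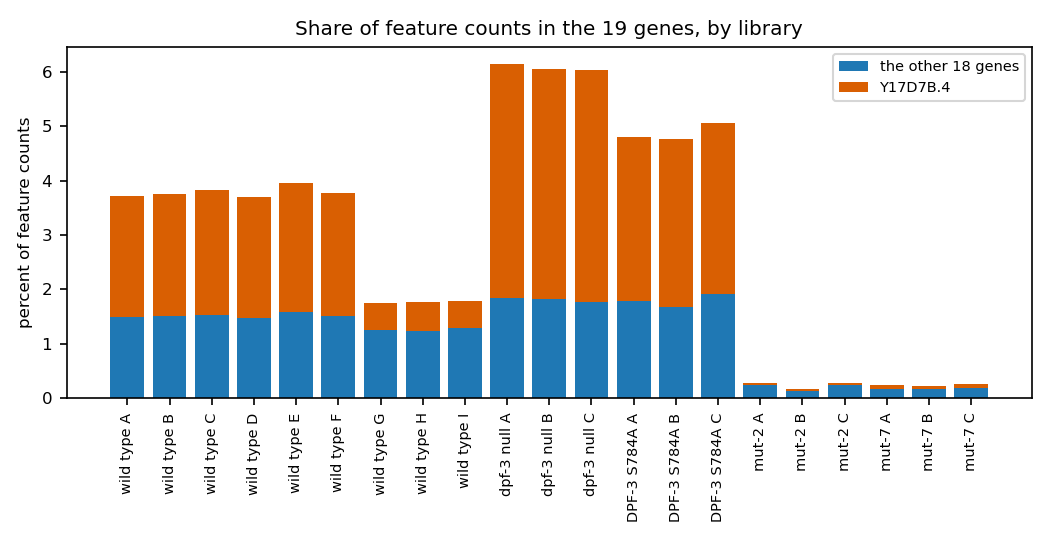
Share of the feature counts held by the 19 genes (vertical axis, percent) in each of the 21 libraries, with Y17D7B.4 in orange and the other 18 genes in blue. The wild-type libraries G to I, at 1.74% to 1.78%, lie under A to F, and most of that gap is the orange part; in the 6 mutator libraries both parts are under 0.3%.

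Y17D7B.4 (WBGene00012452) is a single-exon gene of 450 bases on the minus strand of chromosome V, 18776238 to 18776687 (assembly WBcel235, the same as ce11), with a coding length of 447 bases. Per kilobase of exon it had 37338 CPM in wild type, the highest of the members, ahead of K02E2.11 at 5809. Its level in wild type ran from 4876 CPM through a median of 22275 to 23685. The null libraries gave 43189, 42307 and 42862 CPM, and DPF-3 S784A gave 30279.6, 30997 and 31460.5. All 6 dpf-3 libraries lay above all 9 wild-type libraries, by a factor of 1.88 in the null and 1.36 in DPF-3 S784A against the mean of A to F and of 8.56 and 6.18 against G to I. In mut-2 it stood at 491, 360.5 and 401 CPM and in mut-7 at 747, 599 and 625. These levels lie far below every wild-type library, with means 40.2-fold lower in mut-2 and 25.6-fold lower in mut-7 than the mean of all 9. The ratio was 0.0184 of A to F and 0.0835 of G to I for mut-2, and 0.0289 and 0.131 for mut-7. By TMM the dpf-3 ratio of Y17D7B.4 was 1.25, and its dpf-3 and wild-type libraries overlapped.

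K02E2.11 (WBGene00185118) lies on the plus strand of chromosome V, 20383315 to 20384405, has 3 exons and a coding length of 81 bases, and starts 1278 bases from K02E2.6, a gene of the ERGO-1 target set that is transcribed from the same strand. The wild-type libraries ran from 966 CPM through a median of 2841 to 3356. The null gave 6722, 6424 and 5569 CPM, DPF-3 S784A 5057, 4146 and 4936, mut-2 270.3, 140.2 and 70.7, and mut-7 498, 419 and 498. Every dpf-3 library exceeded every wild-type library, and every mutator library lay under them. The dpf-3 mean was 1.86 times A to F and 4.48 times G to I, while mut-7 stood at 0.160 of A to F but 0.386 of G to I, and mut-2 at 0.0545 and 0.131. The neighbour K02E2.6 followed the same order of genotypes, where wild type averaged 8453 CPM, the null 20993, DPF-3 S784A 19185, mut-2 977 and mut-7 3565. How reads that match both genes were counted is not given in the sources used here, so the values of K02E2.11 are uncertain to that extent.

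In Y102A11A.3, Y43F8B.29 and T12D8.9 too, all 6 dpf-3 libraries lay above all 9 wild-type libraries. Y102A11A.3 (chromosome X, 2019148 to 2025376, plus strand, 13 exons) ranged from 132 through 335 to 456 CPM in wild type. It had 775, 692 and 765 CPM in the null, 836, 765 and 1137 in DPF-3 S784A, no count in mut-2, and 33.2, 129.8 and 128 CPM in mut-7. Its mut-7 libraries lay under every wild-type library, A to I, although the mut-7 B value came close to the lowest of them, and the mut-7 mean was 0.258 of A to F and 0.625 of G to I. The dpf-3 mean was 2.21 times A to F and 5.34 times G to I. With 3 counts as the most that an observed 0 allows over the 3 mut-2 libraries, Y102A11A.3 was at least 13.4-fold lower in mut-2 than in wild type and at least 6.88-fold lower than in G to I alone, bounds that cover counting error only.

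Y43F8B.29 (chromosome V, 19491602 to 19491820, plus strand) is the shortest member, a single exon of 219 bases. It ranged from 86.9 through 318 to 392 CPM in wild type, and had 673, 647 and 671 CPM in the null, 982, 813 and 1155 in DPF-3 S784A, 24.6, 40.1 and 23.6 in mut-2 and 66.4, 79.9 and 76.6 in mut-7. Both dpf-3 genotypes were high and both mutators low, but the mut-7 values were close to those of wild type G to I, whose mean was 102 CPM. The mut-7 mean was 0.215 of A to F and 0.730 of G to I, that of mut-2 0.0850 and 0.289, and the dpf-3 mean was 2.38 and 8.09 times these sets. The gene next to it at 370 bases on the same strand, Y43F8B.7, averaged 232 CPM in wild type and 516 and 717 in the null and DPF-3 S784A, with 37.9 left in mut-2 but 283 in mut-7.

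T12D8.9 (chromosome III, 13617104 to 13621444, plus strand, 6 exons) lies over its whole length of 4341 bases inside hip-1, a gene on the opposite strand that encodes an Hsp70-interacting protein. Without a stated strand setting the reads of the pair cannot be told apart; hip-1 itself had 55.4 CPM in wild type. T12D8.9 had 236, 267 and 306 CPM in the null and 366, 335 and 458 in DPF-3 S784A. The wild-type libraries ran from 10.3 through 133 to 207 CPM, where G to I held 10.3, 16.7 and 14.2 and A to F at least 112. Mut-2 had 0, 40.1 and 0 CPM, and mut-7 had 0, 20.0 and 12.8. The mutators were thus low against A to F, at 0.0779 of that mean, and overlapped G to I, at 0.885 of it, so the mutator dependence of T12D8.9 rests on the first set. The dpf-3 mean was 2.11 times A to F and 23.9 times G to I. By TMM the dpf-3 ratios were 1.62 for Y102A11A.3, 1.81 for Y43F8B.29 and 1.71 for T12D8.9. By that scaling 0 of the 19 genes had all dpf-3 libraries above all wild-type libraries. Scaled to all reads counted, Y102A11A.3 and Y43F8B.29 kept all dpf-3 libraries above all wild-type libraries, and T12D8.9 did not.

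**Figure D3:**
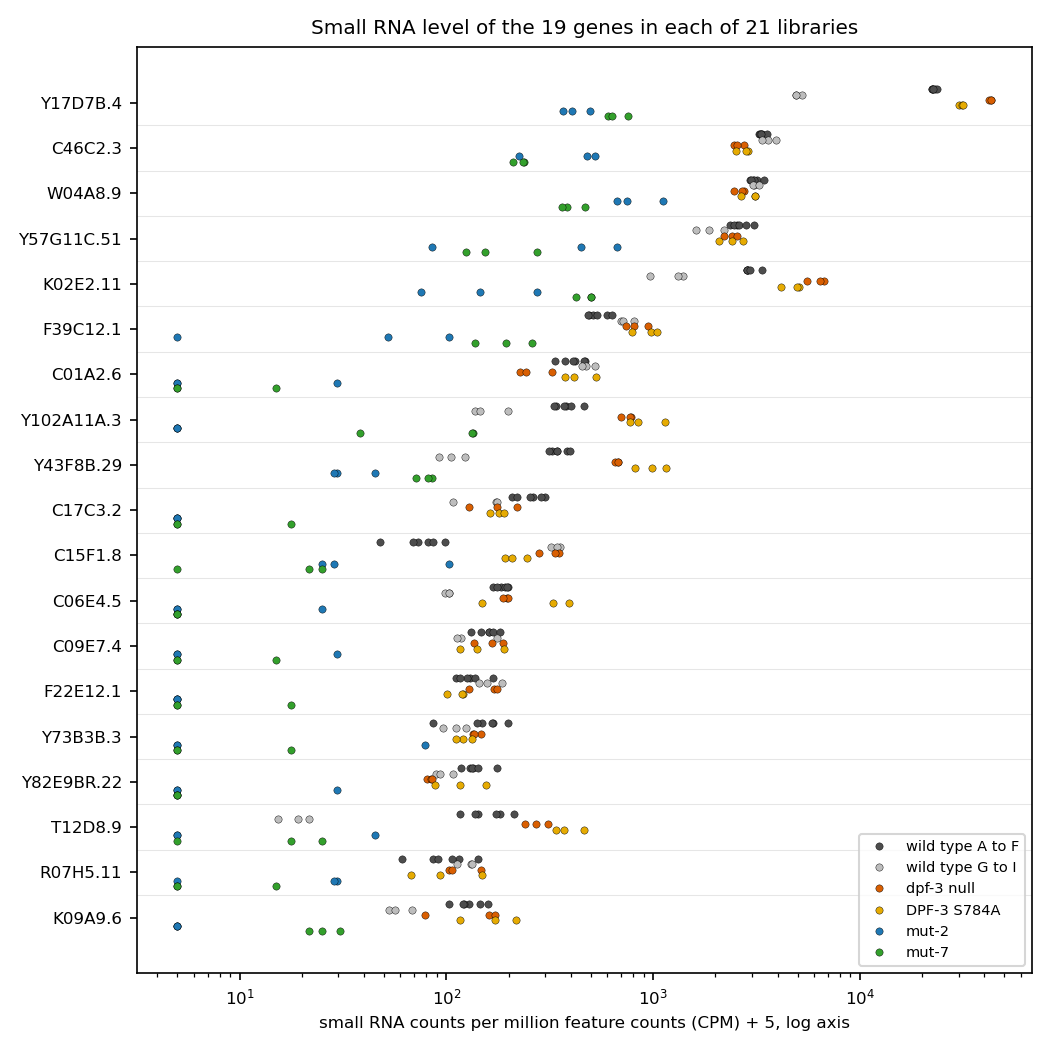
Small RNA level of each of the 19 genes (listed by wild-type mean) in all 21 libraries, as CPM plus 5 on a logarithmic axis, so that libraries without a count stand at 5. The mutator libraries (blue, green) lie to the left of the dpf-3 libraries (orange, yellow) for all 19 genes. The pale wild-type libraries G to I lie to the left of A to F without overlap in 10 genes, among them Y17D7B.4, K02E2.11 and T12D8.9. They lie to the right without overlap in 2 genes, C15F1.8 and F39C12.1.

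By CPM, strong small RNA levels without a gain in the dpf-3 mutants were seen in C46C2.3, W04A8.9 and Y57G11C.51. By TMM their dpf-3 ratios were 0.488, 0.566 and 0.609, all under the limit of 0.75. C46C2.3 (chromosome IV, 9225125 to 9227781, plus strand, 7 exons) ran from 3231 through 3341 to 3939.8 CPM in wild type. It had 2739, 2452 and 2537 CPM in the null, 2863, 2519 and 2803 in DPF-3 S784A, 516, 220.3 and 472 in mut-2 and 232, 229.6 and 204 in mut-7. By CPM C46C2.3 was the single member whose 6 dpf-3 libraries all lay under all wild-type libraries, with ratios of 0.749 in the null and 0.793 in DPF-3 S784A. By TMM 3 members did so, C46C2.3, W04A8.9 and C01A2.6, and scaled to all reads counted 6 members did.

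W04A8.9 (chromosome I, 13852386 to 13854047, plus strand, 3 exons) ran from 2931 through 3080.4 to 3441 CPM in wild type, and the means of both wild-type sets were close, 3108 and 3119. The null had 2463, 2747 and 2697 CPM and DPF-3 S784A had 3103, 2663 and 3120.5. The null libraries lay under wild type and those of DPF-3 S784A overlapped it. In mut-2 it kept 664, 741 and 1108 CPM and in mut-7 465, 379 and 357, all under wild type. Its ratio of 0.269 in mut-2 was above the limit of 0.2, which the mean of both mutators met.

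Y57G11C.51 (chromosome IV, 14773592 to 14774554, minus strand, 3 exons) ran from 1599 through 2443 to 3081 CPM in wild type. The null gave 2187, 2389 and 2551 CPM and DPF-3 S784A gave 2079, 2711 and 2389, within the range of wild type. Mut-2 gave 442, 80.1 and 660.2 CPM and mut-7 149, 119.8 and 268. All of these lay under wild type, and mut-2 B stood apart from the other mut-2 libraries. The dpf-3 mean was 0.905 of A to F and 1.27 of G to I, the mut-2 mean 0.150 and 0.209, and the mut-7 mean 0.0680 and 0.0950. Y57G11C.51 shares 190 bases with Y57G11C.36 on the same strand, which had 17.7 CPM in wild type.

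At intermediate levels, F39C12.1, C01A2.6 and C15F1.8 differed from each other in the dpf-3 mutants. F39C12.1 (chromosome X, 4834868 to 4853195, minus strand) is the longest member, with 29 exons and a coding length of 15345 bases, and per kilobase of exon it had 38.7 CPM in wild type. It ran from 480.4 through 596 to 807 CPM in wild type, with 735, 936 and 802 in the null, 783.6, 973 and 1040.2 in DPF-3 S784A, 98.3, 0 and 47.2 in mut-2 and 133, 189.7 and 255 in mut-7. The dpf-3 libraries lay above A to F and overlapped G to I, and the mutator libraries lay under both sets. The dpf-3 mean was 1.64 times A to F and 1.19 times G to I, the mut-2 mean 0.0903 and 0.0656 of them, and the mut-7 mean 0.359 and 0.261. With a ratio of 0.319, F39C12.1 in mut-7 would not have met the limit by itself.

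C01A2.6 (chromosome I, 13381392 to 13384371, plus strand, 3 exons) ran from 330.3 through 450.4 to 516 CPM in wild type. The null had 223, 238 and 321 CPM, all under wild type, and DPF-3 S784A had 407, 526 and 370.2, within or just above it. A single count was seen in mut-2 and a single one in mut-7, which gives pooled ratios of 58.3 (exact 95% interval 10.5 to 2305) and 105 (18.8 to 4136) of wild type over the mutant.

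C15F1.8 (chromosome II, 6975982 to 6977832, minus strand, 4 exons) was the one member with a wild-type level several times higher in G to I than in A to F. In A to F it ran from 42.9 to 93.6 CPM, and G to I had 348, 316 and 337. The null had 347, 329 and 277 CPM, DPF-3 S784A 188, 239 and 203, mut-2 98.3, 20.0 and 23.6, and mut-7 16.6, 20.0 and 0. The dpf-3 libraries were above A to F, 4.47-fold in the null and 2.95-fold in DPF-3 S784A, and at 0.952 and 0.629 of the mean of G to I. The mut-2 mean was 0.665 of A to F and 0.142 of G to I. Mut-2 A exceeded the whole of A to F, so for C15F1.8 the mutators and wild type overlapped.

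The 8 remaining members had wild-type means between 101 and 216 CPM. In the dpf-3 libraries C09E7.4 (chromosome III, 6534488 to 6536995), F22E12.1 (V, 10453857 to 10457347), Y73B3B.3 (X, 209995 to 211781) and R07H5.11 (IV, 11202768 to 11205790) had ratios of 1.04, 0.956, 0.941 and 1.02 by CPM. By TMM the ratios of these genes were 0.643, 0.611, 0.574 and 0.656. Y73B3B.3 shares 1247 bases with Y73B3B.1 on the opposite strand, which had 9.56 CPM in wild type. C17C3.2 (II, 5566082 to 5566692) and Y82E9BR.22 (III, 1406461 to 1409239) had dpf-3 ratios of 0.792 and 0.807, and C06E4.5 (IV, 7254990 to 7255909) and K09A9.6 (X, 15577242 to 15586811) had 1.55 and 1.46. Wild-type sets without overlap moved 4 of these ratios: against A to F and then G to I the dpf-3 mean was 0.683 and 1.16 for C17C3.2, 0.723 and 1.05 for Y82E9BR.22, 1.31 and 2.46 for C06E4.5, and 1.19 and 2.73 for K09A9.6. In Y82E9BR.22 the 3 null libraries, from 75.7 to 80.2 CPM, all lay under the lowest wild-type library at 84.0, with a null ratio of 0.654, while DPF-3 S784A at 0.959 overlapped wild type. In the other members of this group both dpf-3 genotypes overlapped wild type.

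Few counts were left in the mutators for these 8 genes. C17C3.2, F22E12.1 and K09A9.6 had no count in mut-2, which puts them at least 9.57-fold, 6.06-fold and 4.49-fold under wild type, and C06E4.5 and Y82E9BR.22 had none in mut-7, at least 12.2-fold and 9.54-fold under it. Against G to I alone these bounds were 6.53, 6.97 and 2.41 for the first 3 genes and 7.65 and 7.32 for the last 2. K09A9.6 kept 5 counts in mut-7, at 16.6, 20.0 and 25.5 CPM, against 48.0 to 154 CPM in wild type, which is 0.166 of the mean of A to F and 0.382 of that of G to I. Y73B3B.3 had its 3 mut-2 counts in library A, at 73.7 CPM, close to the 81.5 CPM of wild type F. Over all members, 4 had 0 counts and 7 had 1 to 3 counts in mut-2, and 2 had 0 and 8 had 1 to 3 in mut-7. C17C3.2 has a second gene of the same name and length 1093 bases away on the minus strand (II, 5567786 to 5568396), where wild type had 64.4 CPM, the null 66.7, DPF-3 S784A 45.1, mut-2 0 and mut-7 3.33, and how reads are split between the pair is not known.

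Counted over the members, all 6 mutator libraries lay under all 9 wild-type libraries in 17 of 19 genes, the exceptions being C15F1.8 and T12D8.9 (22.4% of the 5038 features that passed the low-count filter). All 6 dpf-3 libraries lay above all wild-type libraries in 5 of 19 (17.8% of features), and all 6 mutator libraries lay under all 6 dpf-3 libraries in 19 of 19 (12.5% of features). The rule used these contrasts, so the counts describe the choice of genes. The dpf-3 mean of both genotypes was at least 2 times wild type in Y17D7B.4, K02E2.11, Y102A11A.3, Y43F8B.29 and T12D8.9, and 12 of 19 genes lay between 0.75 and 1.5. By CPM 11 of 19 had a dpf-3 mean above wild type and by TMM 6 of 19, where C06E4.5, C09E7.4, F39C12.1, K09A9.6 and R07H5.11 changed sides. The median ratio to wild type over the members was 1.12 for the null, 1.01 for DPF-3 S784A, 0.0683 for mut-2 and 0.0646 for mut-7. In the 248 unnamed coding genes that met the wild-type and mutator limits with a dpf-3 ratio under 0.75, those medians were 0.160, 0.197, 0.0633 and 0.0232.

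**Figure D4:**
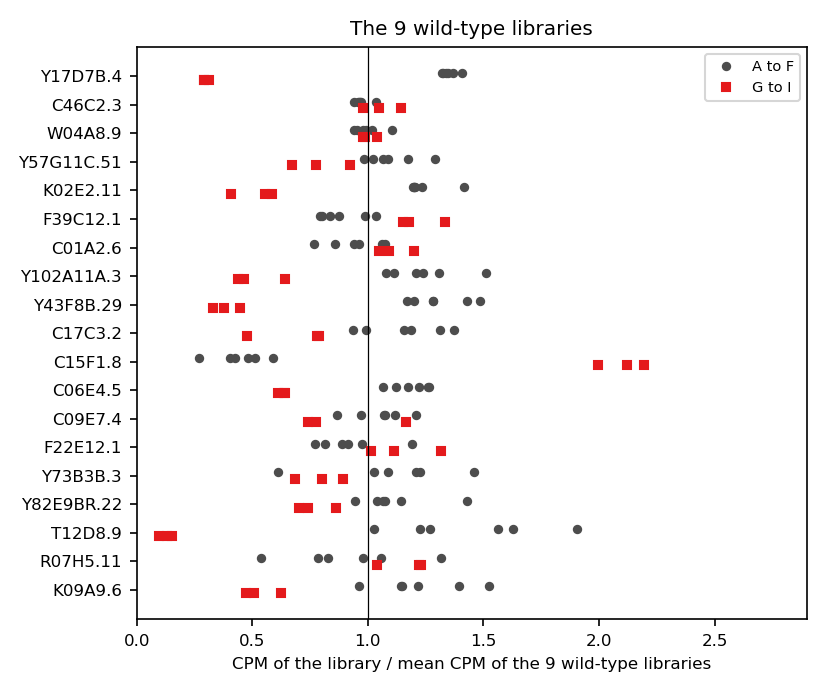
CPM of each wild-type library divided by the mean of all 9 (horizontal axis) for the 19 genes. Circles are A to F and squares G to I: the squares lie to the left of all circles in 10 genes, farthest in T12D8.9, and to the right in C15F1.8 and F39C12.1.

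The 9 wild-type libraries did not give one level for many of the members. G to I lay under A to F without overlap in 10 of 19 members (15.0% of features) and above it in 2 of 19, C15F1.8 and F39C12.1 (39.3% of features). Among the genes higher in A to F the largest factors belonged to the genes whose dpf-3 libraries all exceeded wild type: the mean of A to F was 11.4 times that of G to I in T12D8.9, 4.54 times in Y17D7B.4, 3.40 times in Y43F8B.29, 2.42 times in Y102A11A.3 and 2.41 times in K02E2.11. In C46C2.3, W04A8.9 and C01A2.6 the sets overlapped. The labels do not place any mutant library with either set, and the part of this difference in the ratios to wild type was not tested. In the order of the deposited columns the dpf-3 libraries follow A to F, and mut-2 and mut-7 follow G to I. What this order means is not stated. Against G to I alone the mean of both mutators was 0.108 for Y17D7B.4. It was over 0.2 for K02E2.11 (0.259), Y102A11A.3 (0.312), Y43F8B.29 (0.510) and T12D8.9 (0.885). With A to F alone as wild type 14 of the 19 genes still met the rule, and with G to I alone 10 did.

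The dpf-3 null and DPF-3 S784A were then compared with each other, a difference that the rule did not use, to ask whether loss of the gene and the single exchange gave the same levels. In edgeR's quasi-likelihood test on the 12 mutant libraries with Benjamini-Hochberg adjustment over 5037 features, 3 of 19 members passed an adjusted p of 0.05, against 124 or 2.46% of all features. Y17D7B.4 was higher in the null (1 of 19 members; 0.516% of features were called higher), and C01A2.6 and Y43F8B.29 were lower (2 of 19; 1.95% of features were called lower). In log2 the difference was 0.40 (SE 0.12, adjusted p = 0.0317 by edgeR) for Y17D7B.4, -0.79 (SE 0.21, adjusted p = 0.00716) for C01A2.6 and -0.67 (SE 0.15, adjusted p = 0.000594) for Y43F8B.29. The 3 null and 3 S784A libraries given above do not overlap in any of these genes, and the factors were 1.32 higher, 1.73 lower and 1.59 lower. The members' median was -0.16 against -0.01 over all features, and 9 of 19 members had an unadjusted p under 0.05, against 11.2% of all features. A low-count filter over the 12 mutant libraries alone passed 2570 features and 17 members. No share was taken over features of like level, so the members and all features are not matched in counts.

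These calls were not firm. With a low-count filter over the 12 mutant libraries alone, so that no feature passed through wild type, edgeR called 4 of 17 members and 4.55% of 2570 features: all 4 members were lower in the null, C01A2.6, Y43F8B.29, C06E4.5 and T12D8.9, and Y17D7B.4 was not called (adjusted p = 0.0633). That of Y17D7B.4 was lost with any of the 6 libraries left out (adjusted p by edgeR from 0.0515 to 0.207), that of C01A2.6 without null A (0.106), null B (0.0507) or S784A B (0.103), and that of Y43F8B.29 without S784A C (0.172). Scaled to all reads counted, where the median of all features moved to 0.29, Y17D7B.4, K02E2.11 and C15F1.8 were called and all were higher in the null, with 90 features higher and 32 lower instead of 26 and 98, and the calls of C01A2.6 and Y43F8B.29 were lost. C06E4.5 (log2 -0.76, adjusted p = 0.0505), T12D8.9 (-0.65, 0.0618) and K02E2.11 (0.33, 0.0952) did not pass. For Y57G11C.51 the difference was -0.07 with a 95% interval from -0.30 to 0.16, and for C46C2.3 it was -0.16 with an interval from -0.38 to 0.07, so that a change of 1.5 times in either direction lay outside both intervals.

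Between mut-2 and mut-7, the second difference that the rule did not use, 5 of 19 members passed the same test, against 221 or 4.39% of features. W04A8.9 and Y57G11C.51 were higher in mut-2 (2 of 19; 2.58% of features), and K02E2.11, F39C12.1 and Y102A11A.3 were lower (3 of 19; 1.81% of features). W04A8.9 was 2.19-fold higher in mut-2 (log2 1.13, SE 0.23, edgeR adjusted p = 9.96e-05) and Y57G11C.51 2.21-fold (1.14, SE 0.33, adjusted p = 0.0158). The libraries of W04A8.9 do not overlap, while in Y57G11C.51 mut-2 B lay under all 3 mut-7 libraries. K02E2.11 was 2.83-fold lower in mut-2 (log2 -1.5, SE 0.35, adjusted p = 0.000825) and F39C12.1 4.10-fold lower (-2.03, SE 0.54, adjusted p = 0.00591), where the latter rests on 6 counts in mut-2 and 47 in mut-7. Y102A11A.3, without a count in mut-2 and with 25 in mut-7, was at least 4.30-fold higher in mut-7 (edgeR adjusted p = 0.000444). The libraries of K02E2.11, F39C12.1 and Y102A11A.3 do not overlap between the genotypes.

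The filter over the 12 mutant libraries left the same 5 members called, of 17 tested, against 7.16% of features. This filter could still be passed through the dpf-3 libraries, in which the rule kept the members high. Of these calls only that of Y102A11A.3 held with each of the 6 libraries left out in turn (edgeR adjusted p from 0.000122 to 0.00910). W04A8.9 lost it without mut-2 C (0.0614), K02E2.11 without mut-2 C (0.0738), F39C12.1 without mut-2 B (0.166) or mut-7 C (0.0622), and Y57G11C.51 without mut-2 A (0.140), mut-2 C (0.726), mut-7 A (0.0571) or mut-7 B (0.238). Scaled to all reads counted, which moved the median of all features to -0.52, 4 members were called and all were lower in mut-2: Y17D7B.4, K02E2.11, F39C12.1 and Y102A11A.3, with 91 features higher and 735 lower instead of 130 and 91. Among the others C46C2.3 was at 0.87 (adjusted p = 0.0878), and Y17D7B.4 at -0.59 (adjusted p = 0.291, 95% interval from -1.15 to -0.03). In 9 genes, among them C01A2.6, C09E7.4 and R07H5.11, at most 3 counts were left in both mutators, and a difference between the genotypes was not detectable at this depth.

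**Figure D5:**
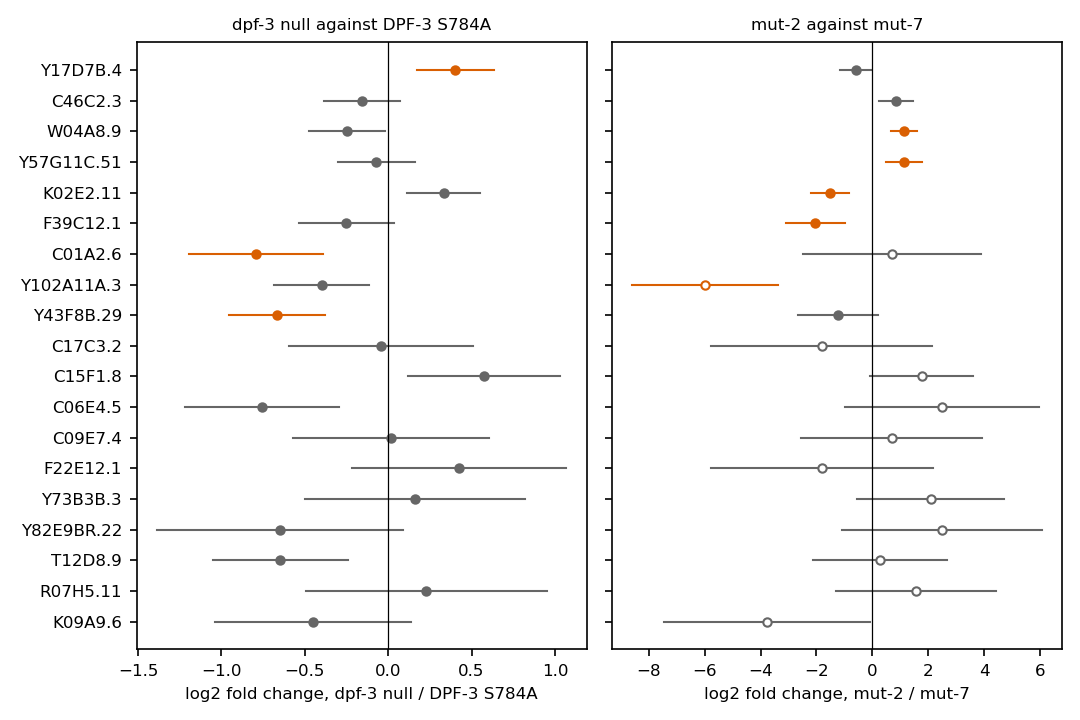
Log2 fold change of the 19 genes between the dpf-3 null and DPF-3 S784A (left) and between mut-2 and mut-7 (right), with an approximate 95% interval, from edgeR's fit of the 12 mutant libraries. Orange marks an adjusted p under 0.05, and open circles on the right mark genes with at most 3 counts in mut-2 or mut-7, whose fitted values depend on the small count that the fit adds. On the left 3 genes are orange and on the right 5.

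Gene structure was not used by the rule. The members had a median of 3 exons and a coding length of 540 bases, against 4 exons and 754.5 bases in the 248 unnamed genes with a dpf-3 ratio under 0.75 and 5 exons and 990 bases over the 19850 protein-coding genes of the table. At most 3 exons were found in 11 of 19 members, or 57.9%, against 33.1% of the 248 genes and 26.8% of all coding genes. The exon length including untranslated parts had a median of 1132 bases in the members and 1164 in all coding genes. The spread among members was wide, from the single exon of Y43F8B.29 and Y17D7B.4 to the 29 exons of F39C12.1. Per kilobase of exon in wild type Y17D7B.4, K02E2.11, Y57G11C.51 and C46C2.3 led with 37338, 5809, 3303 and 3039 CPM, and T12D8.9, K09A9.6 and F39C12.1 came last with 27.3, 30.6 and 38.7. No test was made of these descriptions.

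The members were scattered over the genome. Chromosomes I and II held 2 each, III held 3, and IV, V and X held 4 each, so that 21.1% lay on X, against 13.6% of all coding genes. The closest pair, C01A2.6 and W04A8.9 on chromosome I, lay 468014 bases apart. Of the 38 genes directly beside a member, 3 reached 100 CPM in wild type, namely K02E2.6, Y43F8B.7 and W04A8.6, and 0 of these met the mutator limit. W04A8.6, 590 bases from W04A8.9 on the same strand, had 104 CPM in wild type, with 129 and 98.8 in the 2 dpf-3 genotypes (null first) and 79.7 and 93.3 in mut-2 and mut-7. Another 19 neighbours had under 10 CPM. Of 96 counted intervals on or within 2000 bases of a member, 46 had no count in any library and 2 had at least 100 counts, one beside W04A8.9 at 39.3 CPM in wild type and one beside Y57G11C.51 at 29.3 CPM.

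The pathway genes themselves and the ERGO-1 targets that the rule was to leave out were counted in the same tests. Of 8 ERGO-1 pathway genes, 12 mutator and RNA-dependent RNA polymerase genes and 10 Argonaute genes that could be tested, edgeR called 0 in either comparison and DESeq2 0 as well, with 4 of the 30 at an unadjusted p under 0.05 in edgeR between the dpf-3 genotypes (11.2% of all features) and 5 between the mutators (14.7%). The medians of these 3 lists lay between -0.20 and 0.20 on the log2 scale. Of 10 ERGO-1 targets tested, 1 was higher (E01G4.5) and 3 lower (F55C9.3, F55C9.5 and Y47H10A.5) in the null than in DPF-3 S784A. Over all features 0.516% were called higher and 1.95% lower there. Between the mutators 1 target was higher and 7 lower in mut-2, against 2.58% and 1.81% of all features. The targets' median log2 difference between the mutators was -1.54. In that comparison K02E2.6 stood at -1.81, beside -1.5 for its neighbour K02E2.11.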

How the data were processed

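The authors deposited raw counts of small RNA reads from whole worms, a whole number for each feature in each library, and these were used without change. The submitters' processing notes name the tools HTSeq 0.11.2, Bowtie 1.2.3, cutadapt 2.3 and SAMtools 1.9 together with assembly ce11. The sources used here do not state the strand setting, a length filter, the treatment of reads with several matches or a removal of duplicates. The rows of reads in no feature or in several (the latter 0.0577% of all) stayed out of library totals. Gene names and structures came from the Ensembl annotation release 115 of WBcel235, which lacks 79 of the gene identifiers.

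CPM are counts divided by the library's feature total. The members and gene lists were chosen with earlier results of these data known. All members were to be named if 30 or fewer, with the genes next to each threshold, dpf-3, mut-2 and mut-7. Features passing filterByExpr over 21 libraries (5038, all 19 members among them) were tested on the 12 mutant libraries with edgeR 4.0.16 in R 4.3.3: TMM scaling, glmQLFit with 1 mean per genotype and Benjamini-Hochberg adjustment over the 5037 features with a count there (4542 genes and 495 intervals). Passing this filter could come from a high level in wild type alone. Wild type was left out of this fit, because earlier results of these data described 2 sets of wild-type libraries, which would inflate the spread. The common dispersion was 0.00594 in this fit. Over 21 libraries it was 0.0948 with 1 wild-type mean and 0.00454 with wild type as 2 sets. Bounds for 0 counts use 3 counts over the group, ratios for 1 to 3 counts carry an exact 95% interval, and both cover counting error only, since PCR copies are not known to have been removed. DESeq2 1.42.0 was an alternative. The procedure was tested on simulated counts, with changes set only in features above a low-count limit. Of 2-fold changes it called 76% between the dpf-3 genotypes and 41% between the mutators, and of 4-fold changes 99% and 85%. Each feature's simulated level was its pooled share over the 12 mutant libraries. A gene low in the mutators but not in dpf-3, as the members are, was thus simulated in the mutators above its own level. The mutator percentages therefore do not apply to the members. A member that was not called can therefore still differ. Summaries and figures used Python 3.11.15, pandas 2.3.3 and matplotlib 3.10.9.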

Additional observations from a re-analysis of the deposited data

Results flagged for a closer look

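Reads that fell in no feature lay outside the CPM values and were more frequent in every mutant library than in every wild-type library. As means of 3 libraries, the dpf-3 null had 79.0% of all reads there, DPF-3 S784A 82.2%, mut-2 90.3% and mut-7 86.1%, against a wild-type mean of 63.8% ± 7.85 (SD, n = 9). Because the 19 genes are expressed as a share of the remaining reads, their levels move with this quantity, and its part in their ratios to wild type was not tested beyond the scaling to all reads counted.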

How the results depend on the processing

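The membership rule gave 39 genes by TMM and 38 by DESeq2 size factors (9 of the 19 in each), 8 scaled to all reads counted (4 of the 19), 10 where each mutant genotype had to meet its limit alone, and 18 to 24 with 1 library left out, of which 15 to 19 were members. Wild type A to F alone gave 18 genes and G to I alone 21. The median ratio of the dpf-3 null to wild type, 1.12 by CPM, was 0.705 by TMM, 0.677 by size factors, 0.642 by all reads and 1.21 against G to I. For DPF-3 S784A, 1.01 became 0.654, 0.639, 0.507 and 1.25 in that order, and for mut-7, 0.0646 became 0.0255, 0.0234 and 0.0248 in the first 3. For mut-2, 0.0683 became 0.0281, 0.0274 and 0.0194, and 0.0390 without mut-2 A. The causes were not tested.

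In the test of the null against DPF-3 S784A, 3 members and 124 features were called. A fit of all 21 libraries with 1 wild-type mean called 0 and 2, DESeq2 1 and 32, edgeR without a filter 77 features, and leaving out 1 library 1 to 3 members and 76 to 100 features (1 member without null A, null B or S784A C, and 76 features without the last). Between mut-2 and mut-7, the 5 members and 221 features became 0 and 43 in the fit of 21 libraries, 3 and 111 in DESeq2, and 2 to 5 members and 99 to 255 features with 1 library left out (lowest for both without mut-2 C); scaled to all reads, 826 features were called. The fit with the replicate letter as a replicate block called 3 members and 113 features, and 5 members and 214 features. Libraries of the same letter deviated together with correlations from -0.02 to 0.05 (6 pairs), so the letters were not taken as pairs. Of 302 alternative values of single members in each comparison, 19 and 18 fell out of the call, 8 and 2 entered it, and 0 reversed a call. With at most 3 counts in both mutators, 9 members allowed no detectable difference between them.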
